A study of Citrus sinensis with 5 samples.

Results

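A group of 56 genes had strongly higher transcript levels in leaves of sweet orange, Citrus sinensis, kept at pH 2.5 than in leaves kept at pH 6, out of 28766 genes listed by the authors. Seedlings, 1 to a pot, had been treated for 9 months at pH 2.5 or at the control pH of 6, and leaf RNA was sequenced in 2 libraries from pH 2.5 and 3 from pH 6, each from equal parts of leaf of 4 seedlings. Both treatments carry the same species, tissue and duration, and the labels name no cultivar or genotype. Library numbers follow sample order inside a treatment, and equal numbers do not pair libraries.

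The members were chosen by the authors' normalized value, a gene count multiplied by nearly 1 factor per library, with 10 added. The lower of the pH 2.5 values so raised had to be at least 2.5 times the highest of the pH 6 values, and the lower pH 2.5 normalized value had to be at least 50. This held for 0.195% of the listed genes, while both pH 2.5 libraries stood above every pH 6 library, by any margin, in 27.7% of the 16946 genes tested over the whole table. All 5 libraries were used in that choice, so the differences between treatments given below describe the group and were not tested.

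Acid around the roots damages root membranes and cell walls and limits the uptake of water and mineral nutrients, so a leaf meets acidity mostly through signals and shortages that arrive from the root. Plants are known to answer with changes in ion transport, antioxidant enzymes, cell wall proteins and hormone signalling. The amount of a transcript reflects both its synthesis and its decay. None of the 56 identifiers matched the RefSeq gene table for this species (assembly DVS_A1.0, 29331 genes), nor did any other identifier of the files. No name or role is therefore given to any gene, and the leaf label could not be checked against leaf markers. In pooled leaf tissue, more cells of one type and more RNA per cell cannot be told apart.

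The libraries held 20178803 and 21505928 counts at pH 2.5 and 17224516 to 18710578 at pH 6. A count of 3, taken as the upper limit that a count of 0 allows, equals a normalized value of 2.41 to 2.63 in the pH 2.5 libraries and 3.32 to 3.37 in the pH 6 libraries, which covers counting error only. The labels describe RNA extraction differently between libraries. For pH 2.5 library 1 and pH 6 library 1 they name extraction by a sequencing company, for pH 6 libraries 2 and 3 a commercial kit, and for pH 2.5 library 2 both. The kit text speaks of roots of 2 Citrus species under aluminium, although the tissue of every library is labelled as leaves. For that reason the ratios of the members are also given within pH 2.5 library 1 against pH 6 library 1, and within the other 3 libraries.

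**Figure D1:**
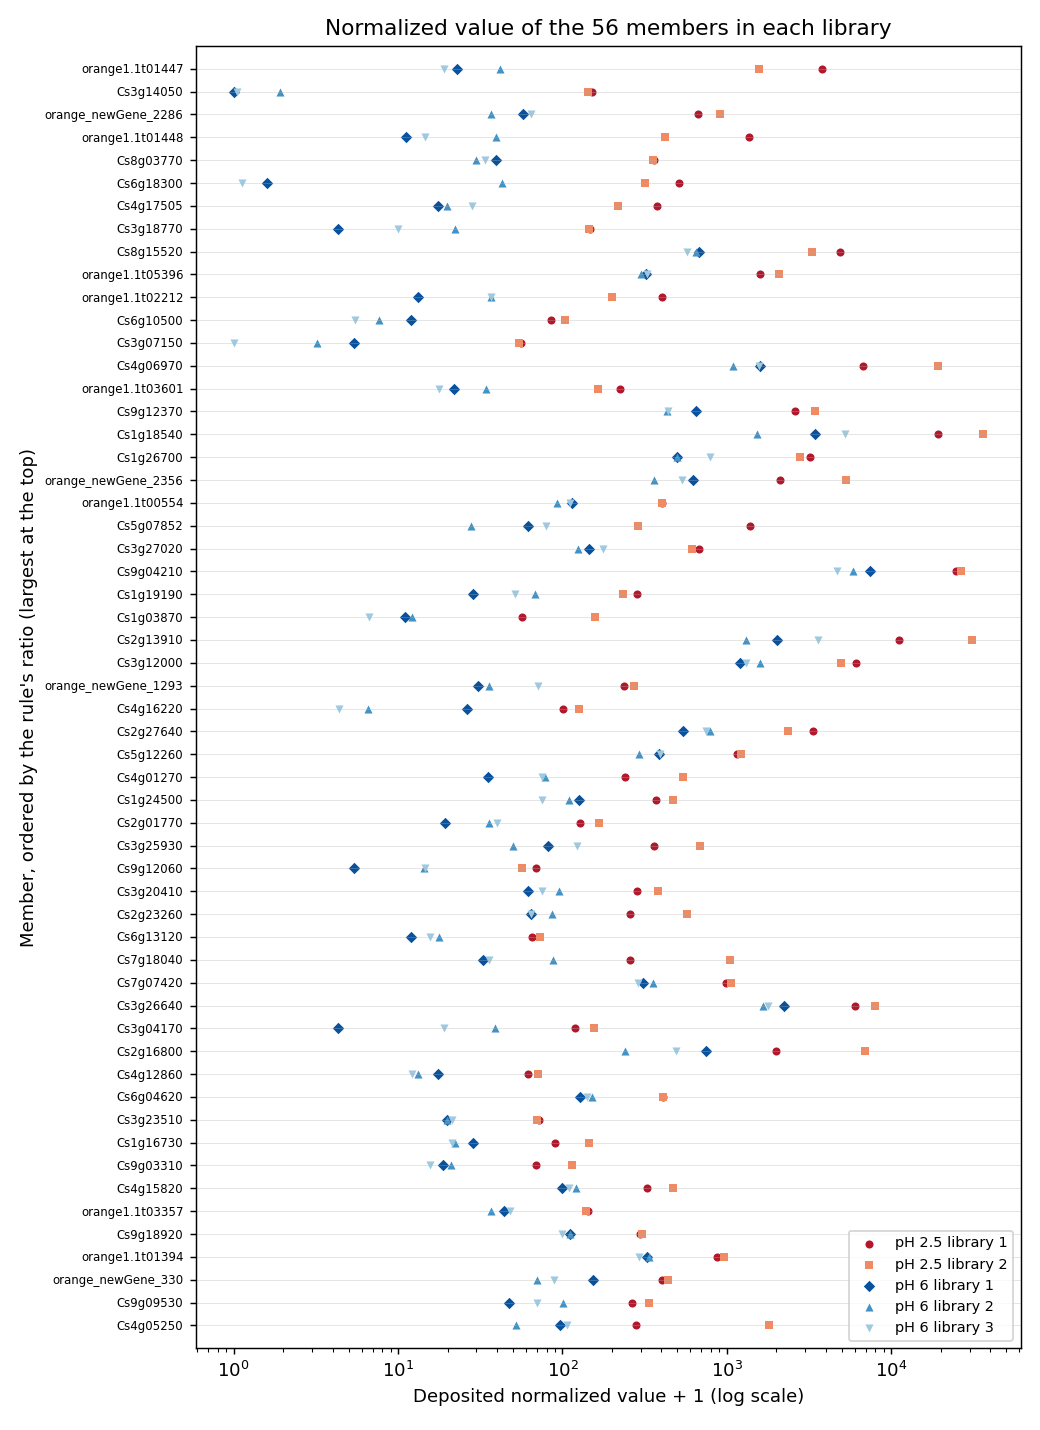
Deposited normalized value plus 1 (horizontal log axis) of each of the 56 members (vertical axis, ordered by the ratio that chose them) in the 2 pH 2.5 libraries (red and orange) and the 3 pH 6 libraries (blue). The pH 2.5 points lie to the right of the pH 6 points in every row, as the choice of members requires, while mean pH 6 levels run from 0.324 to 5997.

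The members span a wide range of basal levels. Their mean normalized value had a median of 410.2 at pH 2.5 (quartiles 146 and 1340.4) and of 66.2 at pH 6 (quartiles 20.8 and 318), where the median of the 16946 genes tested over the whole table was 341 at pH 6. At pH 6 the mean was under 10 for 4 members, from 10 to under 100 for 29, from 100 to under 1000 for 17, and 1000 or more for 6. The ratio of means, pH 2.5 over pH 6, had a median of 5.89 and quartiles of 4.18 and 10.7. By the stricter ratio used for the choice, 15 members stood at 4 or more, 14 from 3 to under 4, and 27 under 3.

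The 8 members with the largest ratio by that measure had low or nearly absent transcripts at pH 6. The largest belonged to orange1.1t01447, at bases 24440418 to 24442567 of unplaced sequence (minus strand), whose normalized values were 3785 and 1571 at pH 2.5 against 21.8, 40.8 and 18.0 at pH 6. Its partner orange1.1t01448 lies almost wholly inside it on the plus strand, from 24441547 to 24442566, and had 1357 and 419 at pH 2.5 against 10.2, 38.7 and 13.5 at pH 6. The ordering of the libraries was shared, with pH 2.5 library 1 above library 2 and pH 6 library 2 above its fellows in both genes. The value of orange1.1t01447 was 2.79 and 3.75 times that of orange1.1t01448 in pH 2.5 libraries 1 and 2, and 2.14, 1.06 and 1.33 times in pH 6 libraries 1, 2 and 3. Whether the counting used strand is not given, so reads of the overlapping stretch cannot be told apart.

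Cs3g14050 was the member with the least transcript at pH 6. It lies at bases 18456149 to 18457104 of chromosome 3 (minus strand) and had normalized values of 150.4 and 142 at pH 2.5, against 0.00684, 0.918 and 0.0480 at pH 6. All its pH 6 values lie under the value of 3 counts, and the deposited count is 1 in each of those libraries, 349 in all at pH 2.5 and 3 in all at pH 6. The ratio of totals scaled by the authors' factors was 131, with an exact 95% binomial interval of 44.6 to 640.1 that covers counting error only. Each of those control counts stands for a normalized value worth less than 1 read, and the ratio of mean normalized values was 452. The pH 2.5 libraries differed little, so the size of the ratio rests on control values too low to fix it.

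Cs6g18300, at bases 18456476 to 18458695 of chromosome 6 (minus strand), had normalized values of 512 and 315 at pH 2.5 against 0.600, 41.9 and 0.123 at pH 6. A single control library thus held nearly all of its pH 6 signal, with 38 counts in library 2 and 1 in each of libraries 1 and 3. Its ratio of scaled totals was 27.6 (exact 95% binomial interval 20.1 to 38.8, counting error only), but pH 2.5 library 1 over pH 6 library 1 gave 49.3 and the other 3 libraries 10.5, each with 10 added. Cs3g18770, at bases 22220046 to 22220778 of chromosome 3 (minus strand), showed the same high pH 6 library at a smaller scale. It had 146 and 143 at pH 2.5 against 3.32, 21.2 and 8.99 at pH 6.

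The remaining members of the leading 8 were low but measurable at pH 6 in each library. orange_newGene_2286, at bases 6161683 to 6164580 of unplaced sequence (minus strand), had 663 and 913 at pH 2.5 against 56.7, 35.9 and 63.4 at pH 6, a ratio of means of 15.2. Cs8g03770, at bases 1897420 to 1898199 of chromosome 8 (plus strand), had 358 and 356 at pH 2.5 against 38.7, 29.0 and 32.6 at pH 6, a ratio of means of 10.7. Its libraries agreed closely within both treatments. Cs4g17505, at bases 17242688 to 17244116 of chromosome 4 (plus strand), had 373 and 217 at pH 2.5 against 16.6, 19.0 and 27.0 at pH 6, a ratio of means of 14.2.

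Beside Cs3g14050, 3 further members averaged under 10 at pH 6. Cs3g07150, at bases 10108176 to 10110513 of chromosome 3 (plus strand), had 55.3 and 53.1 at pH 2.5 against 4.42, 2.23 and 0 at pH 6. It is the member without a count in 1 library, pH 6 library 3, and its counts of 131 at pH 2.5 and 6 at pH 6 gave a ratio of scaled totals of 24.7 (exact 95% binomial interval 11.03 to 68.4, counting error only). Cs6g10500, on chromosome 6, had 84.2 and 103 at pH 2.5 against 11.1, 6.69 and 4.497 at pH 6. Cs1g03870, on chromosome 1, had 56.1 and 157 at pH 2.5 against 9.95, 11.2 and 5.62 at pH 6. In all, 9 members had under 10 counts in at least 1 pH 6 library, and 47 had at least 10 counts in every library.

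At the other end were genes already abundant at pH 6. Per length and depth, in the authors' FPKM, Cs9g04210 averaged 5602 at pH 2.5 and 1452 at pH 6, which placed it 4th among all listed genes at pH 2.5 and 33rd at pH 6. It lies at bases 2313160 to 2314757 of chromosome 9 (minus strand), with normalized values of 24687 and 26650.5 at pH 2.5 against 7455, 5861 and 4674 at pH 6. Of all members it was the only one among the 100 highest FPKM values at pH 6, where 3 members were among them at pH 2.5. The number among the 1000 highest was 13 at pH 2.5 and 3 at pH 6. FPKM did not follow from the deposited count, listed model length and library total alone, to an extent that differed between genes. These ranks therefore rest on the authors' FPKM calculation, whose length term is not given.

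Cs1g18540, at bases 21528490 to 21530405 of chromosome 1 (minus strand), was the second of these and the member with the highest mean normalized value at pH 2.5. It had 19240.5 and 36151 at pH 2.5 against 3438, 1532 and 5242 at pH 6, and its FPKM averaged 1511 (rank 27) at pH 2.5 and 186 (rank 513) at pH 6. Cs2g13910, at bases 10606505 to 10608689 of chromosome 2 (plus strand), followed the same order of libraries, with 11209 and 31142 at pH 2.5 against 2017, 1309 and 3603 at pH 6. In both genes pH 2.5 library 2 was the highest library, pH 6 library 3 the highest control and pH 6 library 2 the lowest. Cs2g13910 had a mean FPKM of 702 (rank 84) at pH 2.5 and 78.5 (rank 1488) at pH 6.

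Cs4g06970, Cs3g26640 and Cs3g12000 complete the 6 members with a mean of 1000 or more at pH 6. Cs4g06970, at bases 4398772 to 4400255 of chromosome 4 (plus strand), had 6696 and 19165.5 at pH 2.5 against 1589, 1093 and 1566 at pH 6, a ratio of means of 9.13. Cs3g26640, at bases 27865765 to 27870322 of chromosome 3 (plus strand), had 6026 and 7954 at pH 2.5 against 2209.5, 1647 and 1767 at pH 6, a ratio of means of 3.73. Cs3g12000, at bases 16307249 to 16310729 of chromosome 3 (plus strand), had 6063 and 4918 at pH 2.5 against 1206, 1586 and 1307 at pH 6, a ratio of means of 4.02. Library 2 was the higher pH 2.5 library in 5 of these 6 genes, and Cs3g12000 was the exception.

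**Figure D2:**
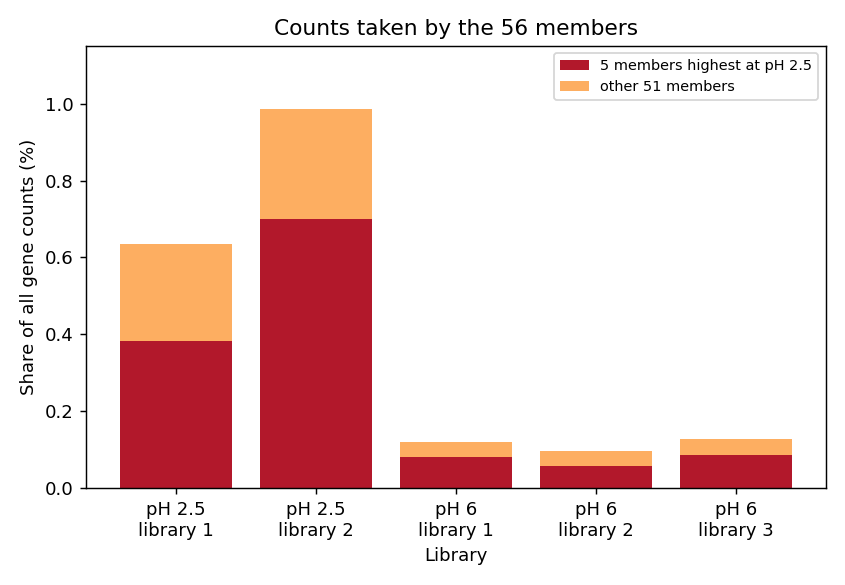
Share of all gene counts (vertical axis, percent) taken by the 56 members in each library, divided into the 5 members with the highest mean at pH 2.5 and the other 51. The bars reach 0.635% and 0.985% in the pH 2.5 libraries and stay at 0.0975% to 0.129% in the pH 6 libraries.

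Together the members made up a small part of all gene counts, a share that was not corrected for gene length. They took 0.635% and 0.985% of all gene counts in pH 2.5 libraries 1 and 2, against 0.120%, 0.0975% and 0.129% in pH 6 libraries 1, 2 and 3. Most of this came from the 5 members highest at pH 2.5 (Cs1g18540, Cs9g04210, Cs2g13910, Cs4g06970 and Cs3g26640), which held 60.3% and 71.0% of the members' counts at pH 2.5 and 67.4%, 59.3% and 67.4% at pH 6. The difference between the pH 2.5 libraries lay mostly in those 5 genes. They took 0.383% and 0.700% of all counts in pH 2.5 libraries 1 and 2, while the other members took 0.252% and 0.286%.

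**Figure D3:**
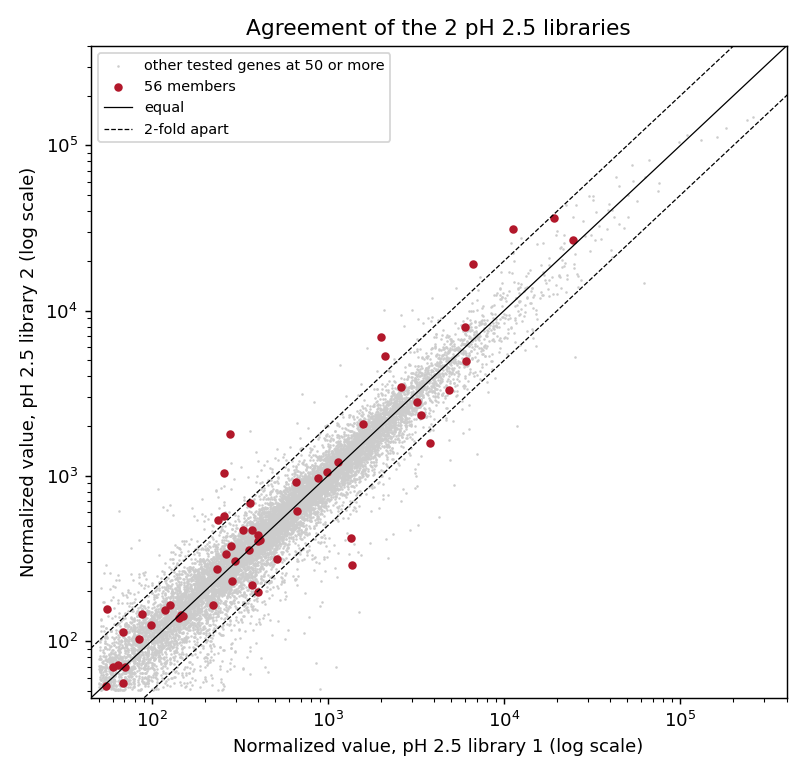
Normalized value of each gene in pH 2.5 library 1 (horizontal log axis) and pH 2.5 library 2 (vertical log axis), with the 56 members in red and the other tested genes at 50 or more in both libraries in grey. The solid line marks equal values and the dashed lines a 2-fold difference, and 13 members lie outside the dashed lines, 9 above and 4 below.

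The pH 2.5 libraries agreed on which members were abundant and disagreed on the size of many values. Over the members, Spearman's rho of the normalized values was 0.897 between the pH 2.5 libraries and 0.902 to 0.964 between pairs of pH 6 libraries (56 genes, description only, with library depth shared by all points). The higher pH 2.5 value was a median of 1.30 times the lower one. Among the 13572 tested genes with at least 50 in both pH 2.5 libraries the median was 1.17. The libraries were within 1.2 times of each other for 19 members (33.9%, against 55.8% of those 13572 genes) and over 2 times apart for 13 members (23.2%, against 4.53%). The 13572 genes were not matched to the members for level or for change, and the part of either in this spread was not tested. Library 2 was the higher one in 34 members and library 1 in 22.

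Cs4g05250 had the widest gap between the pH 2.5 libraries. It lies at bases 3144995 to 3147920 of chromosome 4 (plus strand) and had 279.8 and 1801 at pH 2.5 against 95.1, 51.3 and 106 at pH 6. Cs7g18040, at bases 13831249 to 13836260 of chromosome 7 (minus strand), had 257 and 1047 at pH 2.5 against 32.1, 87.0 and 34.7 at pH 6. In both, library 1 is the lower one and sets the ratio by which the gene was chosen.

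Cs2g16800, at bases 13621293 to 13625666 of chromosome 2 (minus strand), followed the same order, with 1993 and 6935 at pH 2.5 against 743, 239.8 and 492 at pH 6. The gap ran the other way in Cs5g07852, at bases 5090137 to 5116851 of chromosome 5 (plus strand), with 1374 and 286 at pH 2.5 against 60.8, 26.8 and 78.7 at pH 6. These 4 genes had the largest ratios between the pH 2.5 libraries. The closest agreement was that of Cs8g03770 and of Cs6g04620, at bases 5520922 to 5522237 of chromosome 6 (minus strand), which had 409.6 and 408 at pH 2.5 against 126, 149 and 139 at pH 6.

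The pH 6 libraries also differed more among members than among the same 13572 genes. The highest pH 6 value, with 10 added, was a median of 1.48 times the lowest one in members and 1.23 times in those genes. The highest pH 6 value fell in library 2 for 23 members, in library 3 for 17 and in library 1 for 16. As shares these are 41.1%, 30.4% and 28.6% of members, against 32.0%, 28.3% and 39.7% of tested genes for libraries 2, 3 and 1 in that order. Members had lower pH 6 levels than tested genes, as given above, and the part of level in this spread was not tested.

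**Figure D4:**
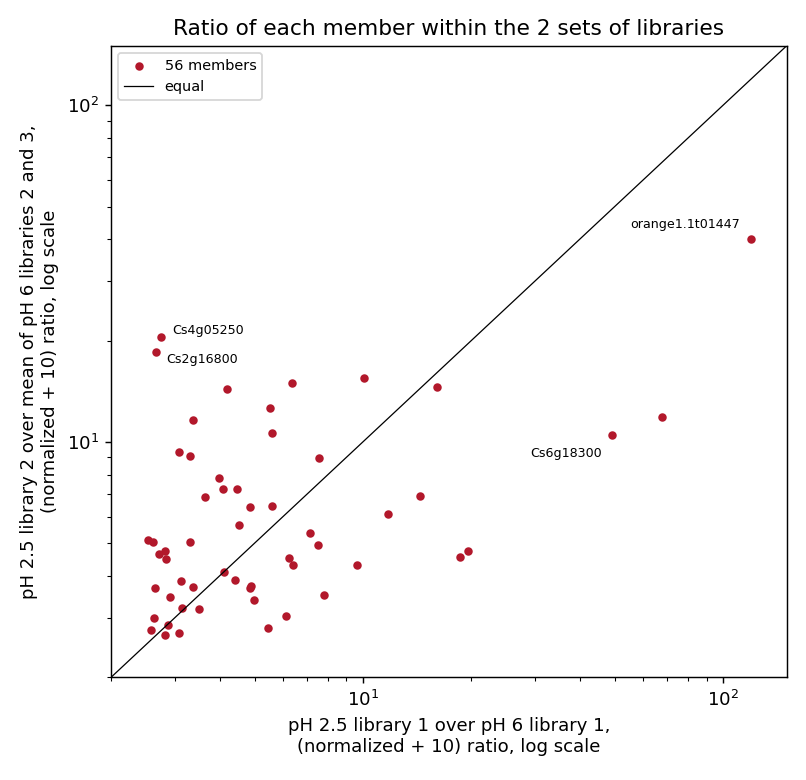
Ratio of normalized values with 10 added for each of the 56 members, as pH 2.5 library 1 over pH 6 library 1 (horizontal log axis) and as pH 2.5 library 2 over the mean of pH 6 libraries 2 and 3 (vertical log axis), with a line of equal ratios. Both ratios are above 2.5 for every member, as the choice of members requires. The line has 31 members above it and 25 below it.

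The ratio of each member was also taken within sets of libraries, split by whether the extraction text names the company alone. The other set is not matched for extraction. Its pH 2.5 library names both the company and a kit, and its pH 6 libraries only a kit. In either set the rule for membership already requires a ratio of at least 2.5. With 10 added, pH 2.5 library 1 over pH 6 library 1 gave a median of 4.44 and a range of 2.54 to 119, and pH 2.5 library 2 over the mean of pH 6 libraries 2 and 3 gave a median of 4.997 and a range of 2.68 to 40.1. For 18 members these ratios differed by over 2 times. In Cs4g05250 they were 2.76 in the company set and 20.5 in the other, and in Cs2g16800 they were 2.66 and 18.5. In orange1.1t01447 they were 119 and 40.1, and in orange1.1t01448 67.6 and 11.9.

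Since the sets share no library, a list chosen in one can be read in the other. The rule for membership, applied to pH 2.5 library 1 against pH 6 library 1, took 547 genes (1.9% of those listed), and applied to pH 2.5 library 2 against pH 6 libraries 2 and 3 it took 361 (1.25%). Both lists held 85 genes, which are 15.5% of the first list and 23.5% of the second, and all 56 members are among them because the full rule is stricter. Of the 547 genes, 60.3% were higher in pH 2.5 library 2 than in both of its controls, against 45.03% of all tested genes. The median ratio to the mean of those controls was 1.34 against 1.02. Of the 361 genes, 85.3% were higher in pH 2.5 library 1 than in pH 6 library 1, against 50.5% of all tested genes, with a median ratio of 1.72 against 1.004. For either list the median ratio in the libraries not used to choose it was below the 2.5 that chose it. That 2.5 is taken against the highest control, and the 1.34 against a mean of controls. The tested genes were not held to the floor of 50 as the lists were, so these shares are not like for like. The members, which sit in both lists by the rule, were not left out.

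**Figure D5:**
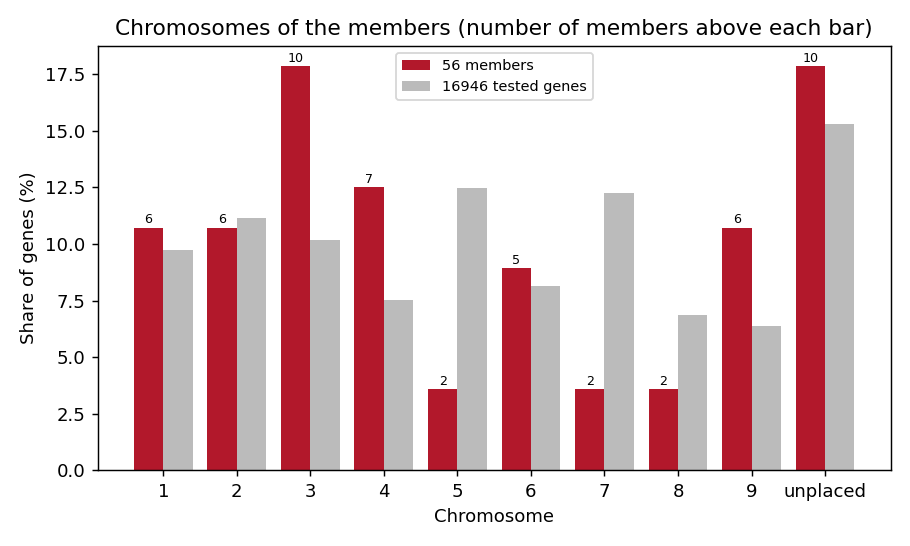
Share of the 56 members (red, left bar, with the number of members above it) and of the 16946 tested genes (grey, right bar) on each chromosome (horizontal axis, vertical axis in percent). Chromosome 3 holds 10 members and chromosomes 5, 7 and 8 hold 2 each.

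The members lay on every chromosome. Chromosome 3 held 10 of them (17.9%, against 10.2% of tested genes), chromosome 4 held 7 (12.5%, against 7.52%), and chromosomes 1, 2 and 9 held 6 each. Chromosome 6 held 5, chromosomes 5, 7 and 8 held 2 each, and 10 were on unplaced sequence (17.9%, against 15.3%). Chromosomes 5 and 7 hold 12.5% and 12.2% of tested genes, against 3.57% of members each. These shares rest on a handful of genes per chromosome and were not tested.

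The members did not sit in runs. The overlapping pair orange1.1t01447 and orange1.1t01448 was the only pair of members that are neighbours in locus order. The next closest members, Cs3g26640 and Cs3g27020 on chromosome 3, lay 256 kb apart with 40 listed genes between them. Cs3g27020 had 672 and 609.9 at pH 2.5 against 145, 123 and 176 at pH 6.

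By edgeR's quasi-likelihood test on the counts with a Benjamini-Hochberg adjusted p under 0.05, 7.13% of the 16946 tested genes were higher at pH 2.5. All 56 members passed the filter on low counts and 55 were called higher. The rule used the same contrast, so nothing is read from that count. It was 15 and 30 when pH 6 libraries 3 and 2 were left out in turn. Genes called over the whole table, in either direction, then fell from 2615 to 74 and 322. A neighbour called higher by this test stood beside 3 members (5.36%, against 9.62% of tested genes), and for 2 of these it was the overlapping pair itself. The third was orange_newGene_2286, whose neighbour orange1.1t00505, 2715 bases away on the opposite strand, had 918 and 1059 at pH 2.5 against 637, 646 and 606 at pH 6.

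The gene models of the members were short beside those of the tested genes. Their median length was 1445 bases (quartiles 1010.5 and 1998.5), against 2072.5 in tested genes and 1547 in all listed genes. Models under 1000 bases made up 14 of the 56 members (25%), 9.99% of tested genes and 30.6% of listed genes. The shortest member model was that of Cs9g12060 at 616 bases, at bases 10351855 to 10353020 of chromosome 9 (plus strand), with 68.4 and 55.5 at pH 2.5 against 4.42, 13.4 and 13.5 at pH 6. The longest was that of Cs2g27640 at 3664 bases, at bases 27369895 to 27375565 of chromosome 2 (minus strand), with 3360 and 2341 at pH 2.5 against 541, 786 and 740.5 at pH 6.

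A model as long as its locus, without introns, was found in 10 members (17.9%), against 10.9% of tested genes and 20.8% of listed genes. Of the 8 members with the largest ratio 5 were of this kind (Cs3g14050, orange1.1t01448, Cs8g03770, Cs6g18300 and Cs3g18770), and 5 of the other 48 were. The 8 were cut by the ratio that chose the members, and this contrast rests on few genes and was not tested. At the opposite extreme, the loci of orange1.1t01394, Cs5g07852 and Cs9g09530 spanned 40475, 26715 and 21674 bases around models of 2775, 1151 and 2943 bases. The label newGene was carried by 4 members (7.14%, against 3.29% of tested genes). They were orange_newGene_2286, orange_newGene_2356, orange_newGene_1293 and orange_newGene_330.

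Overlap with another listed locus was found for 8 members (14.3%, against 20.03% of tested genes). In 6 of them the partner was not a member, and its reads may be shared where strand was not used. Relative to pH 6, the partners' values at pH 2.5 differed in both directions. Cs9g12060 overlaps 4 loci, of which Cs9g11990, Cs9g12070 and Cs9g12000 had ratios of means of 2.58, 1.98 and 1.72 and Cs9g11970 of 0.676. The partner of Cs6g13120, Cs6g13110, had a ratio of means of 2.03, and edgeR called none of these 5 partners. orange_newGene_330, at bases 18276271 to 18278825 of chromosome 2 (plus strand), had 402 and 439.7 at pH 2.5 against 152, 69.1 and 87.4 at pH 6. The locus on its opposite strand, orange_newGene_383 from 18276278 to 18278490, had 156 and 64.3 at pH 2.5 against 643, 691 and 540.03 at pH 6 and was called lower by edgeR. Nearly the same stretch of the genome thus held 1 locus with higher and 1 with lower listed values at pH 2.5. For orange_newGene_330 the choice of members requires the higher values. Whether the counting used strand is not given, so reads of the shared stretch cannot be told apart.

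Cs3g04170 was the member that edgeR did not call. It lies at bases 4927047 to 4929926 of chromosome 3 (plus strand) and had 118 and 154 at pH 2.5 against 3.32, 37.9 and 18.0 at pH 6, where the controls differ by more than in most members. It is placed within the much longer locus Cs3g04160 on the same strand, from 4914697 to 5476117, which had 154 and 144 at pH 2.5 against 307, 310.03 and 314 at pH 6 and was called lower. The other members with overlapping partners were Cs9g12060, Cs2g27640, Cs6g13120 and orange1.1t01394. The partner of Cs2g27640, Cs2g27630, had 220.4 and 233 at pH 2.5 against 200.2, 220.4 and 212 at pH 6, a ratio of means of 1.08.

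The thresholds cut through a continuous range of values. Just inside the ratio of 2.5 were Cs4g05250, Cs9g09530 and orange_newGene_330, at 2.505, 2.508 and 2.54. Just outside it were Cs2g24600, Cs4g13960 and Cs8g19140, at 2.496, 2.495 and 2.493. Cs2g24600 had 227 and 224 at pH 2.5 against 39.8, 83.6 and 47.2 at pH 6, a pattern like that of members. Just above the floor of 50 were Cs3g07150, Cs9g12060 and Cs1g03870, whose lower pH 2.5 values were 53.1, 55.5 and 56.1. Just below it were orange1.1t02555, Cs5g09750 and Cs5g29460, at 46.7, 45.6 and 38.6.

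A pair of members just below the leading 8 by ratio had higher levels than most. Cs8g15520, on chromosome 8, had 4856 and 3309.6 at pH 2.5 against 672, 652 and 569.9 at pH 6, a ratio of means of 6.47 with controls close together. orange1.1t05396, on unplaced sequence, had 1586 and 2066 at pH 2.5 against 319, 299 and 327 at pH 6, a ratio of means of 5.79. These genes combined a clear basal level with agreement among controls. The smallest ratio of means, 2.84, belonged to Cs9g18920 on chromosome 9, with 297 and 306 at pH 2.5 against 109, 110.4 and 98.9 at pH 6.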

How the data were processed

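Leaf RNA was measured in 5 libraries, 2 at pH 2.5 and 3 at pH 6. Per the submitters' processing notes the authors used TopHat2, Cufflinks and DESeq; the sources used here give no roles, versions, genome build, annotation or use of strand, and coordinates are on the authors' build. The authors deposited a count per gene, an FPKM value and a normalized signal. That signal equals the count times 0.877 and 0.805 in pH 2.5 libraries 1 and 2 and 1.11, 1.12 and 1.12 in pH 6 libraries 1, 2 and 3, within 0.05 counts, for 62.9% to 64.3% of genes with a count. For nearly all others the deposited count was higher by up to about 1, so counts near 1 may stand for less than 1 read.

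Members were taken by the rule from the normalized column. edgeR 4.0.16 in R 4.3.3 (TMM factors, filterByExpr, quasi-likelihood test, 2-sided) was fitted to the 16946 genes that passed the filter. DESeq2 1.42.0 was an alternative. The edgeR fit was also run on simulated data, with the outcome not reported here. Replicates are pools of seedlings. Intervals are exact 95% binomial (SciPy 1.17.1). Genes described singly are the leading 8 by ratio, the highest at each pH, those with the least and most agreement, the shortest and longest models, overlapping members and those at the thresholds. Others were singled out after their values were seen. The members, rule and features were chosen with earlier results of these data known.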

Additional observations from a re-analysis of the deposited data

How the results depend on the processing

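The number of members depended on the rule's settings and on the scaling. It was 33 with 30 added in place of 10, and 154, 29 and 15 with a factor of 2, 3 and 4. Adding 1 or 0 gave 78, and a floor of 20 or 100 gave 59 or 46. TMM or median ratio factors gave 53, without Cs4g05250, Cs9g09530 and Cs3g23510. Library totals alone gave 106, as that scaling moved the median log2 ratio of all tested genes to 0.21, against 0.02 with TMM factors (CPM with 0.5 added). Without 1 library at a time it was 84 to 230, always with all 56 members, since fewer conditions had to be met. Within the sets of libraries split by extraction text it was 547 and 361.

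The median log2 ratio of the members (10 added) was 2.35. It was 2.11 on FPKM with 1 added, 2.34 on TMM CPM with 0.5 added, and 2.08 to 2.37 without 1 library at a time. Genes called by edgeR over the whole table, 2615, were 74 to 2029 without 1 library, 1621 with extraction text as a covariate, 4036 by DESeq2 and 20 at an adjusted p under 0.01. The members called higher, 55, were 15 to 51 without 1 library and 8 at an adjusted p under 0.01. The fewest were left without control replicate 3 (15), low pH replicate 2 (28) and control replicate 2 (30). The cause was not tested. As a covariate, extraction text separated the libraries naming the company alone from the others. No paired analysis was possible because the labels give no replicate numbers shared between treatments. Depth limits the members with under 10 counts in a pH 6 library.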

Other observations

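Several genes entered the group when 1 library was left out. Without pH 6 library 2 the rule took 35 more genes, without pH 6 library 1 it took 44 more, and without pH 6 library 3 it took 28 more. Cs5g31040, on chromosome 5 from 32778706 to 32780468 and singled out after its values were seen, had normalized values of 79.1 and 171 at pH 2.5 against 0.0178, 27.1 and 0.00893 at pH 6. As in the member Cs6g18300, pH 6 library 2 alone held its control signal. Without pH 2.5 library 1 the rule took 174 more genes. Among them orange1.1t01694, on an unplaced sequence from 27524251 to 27525423, had 2592 and 9374.5 at pH 2.5 against 1048, 784 and 746 at pH 6, the order of pH 2.5 libraries also seen in Cs2g16800 and Cs4g06970. This gene was also taken without pH 6 library 1. Without pH 2.5 library 2 the rule took 153 more. Cs3g09900, on chromosome 3 from 14036798 to 14038467, was one of these, with 199.97 and 75.6 at pH 2.5 against 19.9, 24.5 and 19.1 at pH 6. It was also taken without pH 6 library 2.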
